A study of Homo sapiens with 2 samples.

Results

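Zinc finger genes that carry the symbol ZNF and lie outside chromosome 19 were compared between a temozolomide-resistant clone of the human glioblastoma cell line A172 and the parental line. Members were all genes of the deposited table whose name was ZNF followed by a digit and whose locus lay on an autosome other than 19, without names that end in P or in AS with or without a digit. This rule, which used no measured value, gave 211 of the 15603 listed genes. Of these, 206 are annotated as protein-coding in GENCODE 29 and 5 are not (ZNF192P1, ZNF322P1, ZNF658B, ZNF346-IT1 and ZNF638-IT1). The resistant group was 1 library of clone A172-r#6, which had been selected with the alkylating drug temozolomide and is labelled as kept with it. Its counterpart was 1 library of parental A172, labelled as kept without the drug. Clone, selection and drug exposure therefore differ together, the resistant line is a single clone, and with 1 library per group no difference below has a replicate check or a p-value of its own.

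C2H2 zinc finger proteins form the largest family of human transcription factors. Each finger folds around a zinc ion held by a pair of cysteines and a pair of histidines, and a row of fingers reads a stretch of DNA. Many members also carry a KRAB domain, which recruits the co-repressor TRIM28 (KAP1) and, through it, the histone methyltransferase SETDB1, and such proteins are known above all for silencing transposable elements. The family grew by tandem duplication, so that its genes sit in clusters, the best known of them on chromosome 19. Others without KRAB act at promoters, in chromatin complexes or on RNA.

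The authors deposited FPKM, a read density that allows for both transcript length and library depth, and the depth itself is unknown. Over all listed genes FPKM summed to 323932 in the resistant and 299594 in the parental library. As a check of the label, the glial and mesenchymal genes VIM (804 FPKM resistant, 632 parental) and CD44 (161 and 83.1) were abundant. NES had 5.084 FPKM in the resistant and 33.75 in the parental library, SOX2 had 0.253 and 2.23, and OLIG2 had 3.42 and 1.43. GFAP and S100B, which define astrocytes, were not among the listed genes, nor were CDH1 and VWF. EPCAM, CD68, PTPRC and PECAM1 stayed under 2 FPKM in both libraries.

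The zinc finger genes outside chromosome 19 were mostly low. Their summed level was 1737 FPKM in the resistant and 1596 in the parental library, which was 0.536% and 0.533% of each library's sum. Of the 211 members, 159 were under 10 FPKM in both libraries and 14 were at 20 or more in both. By far the most abundant was ZNF207 on chromosome 17 (BuGZ, a microtubule-binding protein that loads BUB3 at kinetochores), with 98.98 FPKM in the resistant and 95.95 in the parental library. ZNF655 followed in the resistant library with 55.7 FPKM, against 40.1 in the parental one. ZNF768 had 48.0 and 23.6 FPKM. ZNF638, which works with the HUSH complex in silencing retroviral DNA, had 41.6 FPKM in the resistant and 49.4 in the parental library. ZNF664 had 40.6 and 29.5 FPKM. ZNF217, an oncogene known from amplification on 20q, had 37.5 FPKM in the resistant and 42.6 in the parental library, and ZNF639 had 34.55 and 37.02. These 7 genes include the 5 most abundant members of each library, and ZNF768 was the one among them with the widest gap.

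A fold was computed as log2 of (resistant FPKM + 1) over (parental FPKM + 1), and genes with 1 FPKM or more in either library were compared. The pseudocount of 1 understates the change of low genes. In a sequenced culture, fewer cells with a transcript and less of it per cell cannot be told apart. Of the members, 201 passed the filter and the other 10 reached at most 0.986 FPKM. A gene was called when its fold was at least 2, a log2 fold of 1 in size. By this threshold 7 members (3.48%) had a higher and 5 (2.49%) a lower level in the resistant clone, beside 4.59% and 3.82% of all 13937 compared genes. With upper quartile scaling the counts of members were 6 and 7, and the shares of all compared genes were 3.85% and 4.44%. The members' median log2 fold was 0.05, with quartiles of -0.24 and 0.40, and that of all compared genes was 0.04, with quartiles of -0.31 and 0.38. Shares of calls among the zinc finger genes were thus near the background in both directions.

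**Figure D1:**
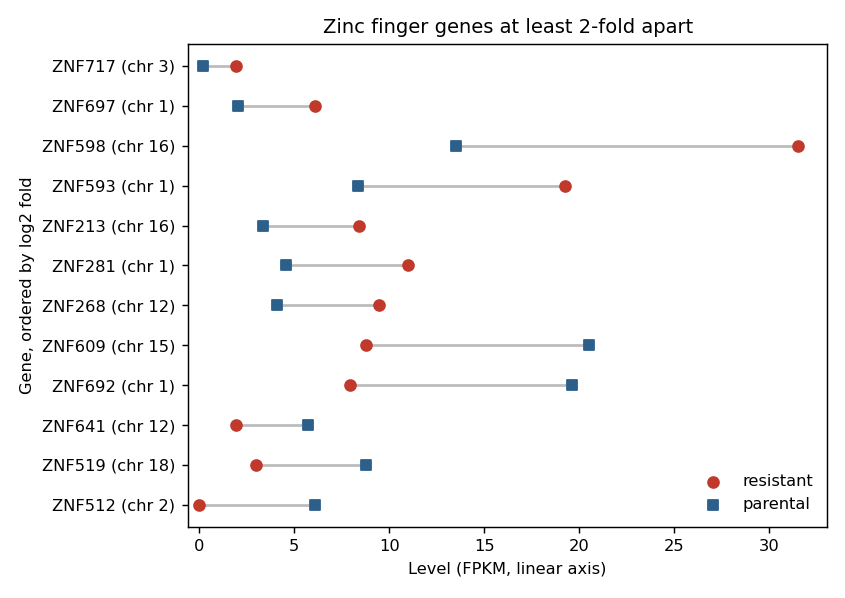
Level in FPKM (linear horizontal axis) of the 12 zinc finger genes outside chromosome 19 that were at least 2-fold apart, ordered by log2 fold, with 1 library per group (red circles resistant, blue squares parental). ZNF598 has the highest level in the resistant library, 31.5 FPKM, and ZNF512 is listed at 0 there.

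Among the genes called higher, a pair act in translation. ZNF598, the ubiquitin ligase that marks collided ribosomes, had 31.5 FPKM in the resistant and 13.5 in the parental library (log2 fold 1.16). It lies on chromosome 16 from 1997654 to 2009823 (GRCh38, minus strand). ZNF593, the human counterpart of a yeast factor that helps export the large ribosomal subunit, had 19.2 FPKM in the resistant and 8.36 in the parental library (1.11). ZNF593 lies on chromosome 1 from 26169871 to 26170873. Both had a single C2H2 finger by sequence pattern and both libraries expressed them well above the filter.

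ZNF281, a GC-box-binding factor studied in pluripotency and in epithelial-mesenchymal transition, had 10.97 FPKM in the resistant and 4.583 in the parental library (1.10; chromosome 1, 200404940 to 200410056). ZNF213, which joins a SCAN and a KRAB domain, had 8.406 and 3.355 FPKM (1.11; chromosome 16, 3129777 to 3142805). Its locus in the table is merged with those of ZNF205 (5.41 FPKM resistant, 3.84 parental) and of its antisense gene ZNF213-AS1 (4.05 and 4.56), and whether counting used strand is not given in these sources. ZNF268, a KRAB gene with 24 fingers, had 9.45 FPKM in the resistant and 4.08 in the parental library (1.04; chromosome 12, 133181409 to 133214831). ZNF268 fell under the threshold with either other scaling, and the gene that shares its locus, ZNF10, had 2.77 and 3.54 FPKM. ZNF697 had 6.10 and 2.06 FPKM (1.21; chromosome 1, 119619422 to 119647773). ZNF717, a KRAB gene with 18 fingers, had 1.91 FPKM in the resistant and 0.196 in the parental library (1.28; chromosome 3, 75678660 to 75785583). Near-identical copies of ZNF717 exist in the genome and can take or lend reads, which makes its level uncertain. The 7 genes lay on 4 chromosomes. Their plain FPKM ratios were all over 2, which follows from the call, because the pseudocount draws each ratio toward 1.

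The 5 genes called lower came from 5 chromosomes. ZNF609, which binds the cohesin loader NIPBL and the Integrator complex, had 8.79 FPKM in the resistant and 20.5 in the parental library (-1.14; chromosome 15, 64460742 to 64686068). ZNF692, known as AREBP from its binding to an AICAR response element, had 7.96 and 19.6 FPKM (-1.20; chromosome 1, 248850006 to 248859144). ZNF641 had 1.91 FPKM in the resistant and 5.74 in the parental library (-1.21; chromosome 12, 48337180 to 48351414). The KRAB gene ZNF519 had 2.97 and 8.79 FPKM (-1.30; chromosome 18, 14057457 to 14132490). For these 4 genes no other listed gene shared the locus or an exon.

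ZNF512 (chromosome 2, 27582969 to 27623215) was listed at 0 FPKM in the resistant library and at 6.10 in the parental one. An exact 0 in such a table can be a failed estimate, and no fold is given. Its locus is merged with those of 4 other genes, all listed in both libraries: GPN1 (25.57 FPKM resistant, 20.75 parental), SLC4A1AP (13.4 and 11.8), SUPT7L (16.96 and 19.21) and CCDC121 (1.225 and 2.232). The other member with a 0 was ZNF648, at 0.563 FPKM in the resistant library and 0 in the parental one, which did not pass the filter.

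Several genes stood close to the threshold. Just under it on the higher side were ZNF12, a KRAB gene with 20.3 FPKM in the resistant and 9.65 in the parental library (log2 fold 0.9985), ZNF768 with 48.0 and 23.6 (0.99) and ZNF469, linked to brittle cornea syndrome, with 2.737 and 0.8885 (0.98). On the lower side it was ZNF511, with 2.168 and 5.325 FPKM (-0.9975). These 4 names were chosen after their values were seen. By plain FPKM ratio with no pseudocount, 16 of the 209 members above 0 in both libraries were past 2-fold upward (7.66%) and 10 downward (4.78%), beside 8.99% and 9.03% of all such genes, and ZNF512 and ZNF648 have no ratio.

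In the authors' deposited table, 9 of the 211 members (4.27%) had a q-value under 0.05 and were higher, and 7 (3.32%) had one and were lower, beside 5.13% and 3.98% of all listed genes. Of the 12 called members, 10 had a q-value under 0.05 in the authors' deposited table, and the exceptions were ZNF281 (0.0746) and ZNF593 (0.196). The lowest q-values there were 4.97e-09 for ZNF512, 3.8e-05 for ZNF213 and 0.000145 for ZNF717. ZNF287, under the filter at 0.0580 FPKM in the resistant and 0.900 in the parental library, had 0.00269 in the authors' deposited table. A test on a pair of libraries compares those libraries and not the conditions.

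Promoter sequences were looked up in RefSeq (GRCh38.p14) to show what lies before the start of the 2 members with the lowest and the 2 with the highest fold. The 200 bases before the start that RefSeq gives are printed 5′ to 3′ in the direction of transcription, with CG dinucleotides in capitals. That start can differ from the end of the GENCODE 29 interval given above, so the stretch of ZNF697 lies beyond its interval and those of ZNF512, ZNF519 and ZNF717 reach into theirs. RefSeq has a further entry for ZNF717 with another start, which is not shown.
ZNF512, chr2:27582842-27583041, plus strand: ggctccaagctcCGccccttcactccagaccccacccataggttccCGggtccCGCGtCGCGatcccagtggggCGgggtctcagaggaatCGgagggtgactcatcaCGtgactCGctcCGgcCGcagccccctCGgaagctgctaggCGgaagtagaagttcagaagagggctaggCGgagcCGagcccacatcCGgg
ZNF519, chr18:14132436-14132635, minus strand: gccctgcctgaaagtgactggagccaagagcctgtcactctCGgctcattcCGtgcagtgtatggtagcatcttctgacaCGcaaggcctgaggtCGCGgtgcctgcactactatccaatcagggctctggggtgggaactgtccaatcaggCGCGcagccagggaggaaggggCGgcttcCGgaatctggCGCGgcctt
ZNF697, chr1:119648267-119648466, minus strand: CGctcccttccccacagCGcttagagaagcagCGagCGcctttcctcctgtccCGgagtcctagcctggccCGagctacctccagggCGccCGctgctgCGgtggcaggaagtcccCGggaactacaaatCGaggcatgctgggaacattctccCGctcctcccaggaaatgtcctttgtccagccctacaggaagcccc
ZNF717, chr3:75785550-75785749, minus strand: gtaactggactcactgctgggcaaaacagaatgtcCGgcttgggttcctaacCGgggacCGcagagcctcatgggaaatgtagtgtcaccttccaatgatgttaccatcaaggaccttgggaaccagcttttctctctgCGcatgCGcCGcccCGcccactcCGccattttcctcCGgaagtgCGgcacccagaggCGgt
These stretches hold 17 CG dinucleotides for ZNF512, 11 for ZNF519, 12 for ZNF697 and 11 for ZNF717, so the genes at the ends of the order did not separate by this count. RefSeq held a promoter for 164 of the 201 compared members. Over the window of 300 bases, from 250 before to 50 after the start, members had a median of 25 CG dinucleotides (quartiles 18 and 32). All compared genes had 26 (19 and 35, 9564 promoters), and the chromosome 19 zinc finger genes had 22 (16 and 26). The letters ACTACAA, a part of an element bound by the zinc finger factor ZNF143, were searched on both strands. They stood in 10 of the 164 promoters (6.10%), ZNF697 among them, beside 3.97% of all compared genes with a promoter and 6.49% of those of chromosome 19 zinc finger genes. A match of 7 letters is a description and shows no binding.

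Members with known roles were read in groups. Among 9 promoter and enhancer factors, 1 was called higher, ZNF281, and none lower (median log2 fold -0.10). The counts of this and the following lists stand beside 4.59% higher and 3.82% lower over all compared genes. ZNF143, an activator of small nuclear RNA and many housekeeping promoters, was the lowest of them, with 3.89 FPKM in the resistant and 7.26 in the parental library (-0.76). Its close relative ZNF76 had 9.45 and 10.9 FPKM (-0.19). ZNF131, a BTB-type zinc finger factor, had 23.75 and 15.23 FPKM (0.61), while ZNF148, which binds GC-rich promoter elements, stood at 28.0 FPKM in the resistant and 27.4 in the parental library. All compared genes had a median of 0.04.

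Of 12 genes listed for development and cancer, 8 were measured, with 1 called lower, ZNF609, and none higher (median -0.09). ZNF608, the paralog of ZNF609 on chromosome 5, had 0.363 FPKM in the resistant and 1.33 in the parental library (-0.77). At the other end stood ZNF703, a breast cancer oncogene, with 11.3 and 7.42 FPKM (0.55). ZNF462, a large neurodevelopmental gene, had 24.87 FPKM in the resistant and 25.03 in the parental library.

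None of 9 genes listed as partners in chromatin complexes was called (median 0.18). The widest gap among them was that of ZNF451, a SUMO ligase, with 17.65 FPKM in the resistant and 11.99 in the parental library (0.52). ZNF532 was at the other end with 15.2 and 18.4 FPKM (-0.26). ZNF687 and ZNF592, which share a complex with ZMYND8, had 21.1 and 5.29 FPKM in the resistant library, against 20.2 and 5.60 in the parental one.

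The list of RNA and translation genes had 2 of 10 called higher, ZNF598 and ZNF593, and none lower (median 0.10), beside 4.59% and 3.82% of all compared genes. ZNF622, the counterpart of a yeast factor that matures the large ribosomal subunit, had 15.7 FPKM in the resistant and 8.60 in the parental library (0.80). ZNF326, part of the DBIRD complex that links transcription to splicing, had 6.708 and 3.685 FPKM (0.72). In the opposite direction, ZNF106 had 16.8 and 29.2 FPKM (-0.76). The double-stranded RNA binder ZNF346 had 11.02 FPKM in the resistant and 11.62 in the parental library, so the list was spread from -0.76 to 1.16.

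Coding sequences of GENCODE 29 were translated and searched for a KRAB box pattern and for C2H2 fingers. Of the 206 coding members, 89 matched the KRAB pattern, 83 of which passed the filter. Of these 83, 2 were called higher (ZNF268 and ZNF717) and 1 lower (ZNF519), with a median log2 fold of 0.00, where 4.59% of all compared genes were higher and 3.82% lower. Of 113 compared coding members without a match, 5 were called higher and 4 lower, with a median of 0.09. The pattern misses some divergent KRAB domains, such as those of ZNF263 and of ZNF213, which was called higher. The members without a match thus include KRAB genes, and the split of calls by class is uncertain. The KRAB median changed sign under 5 of the alternatives. By number of fingers, the medians were 0.09 for 17 members with 0 or 1 finger, 0.03 for 46 with 2 to 5, 0.03 for 65 with 6 to 10 and 0.13 for 68 with 11 or more. The interquartile range of the folds was 0.75, 0.57, 0.70 and 0.40 on the log2 scale in these groups, so it was narrowest in the genes with the longest finger arrays.

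The machinery that KRAB proteins recruit had a higher median level than the zinc finger genes themselves. Its median was 22.21 FPKM in the resistant and 27.09 in the parental library, against 5.251 and 4.785 for the members. DNMT3A, DNMT3B and MPHOSPH8 lay below the members' medians in both libraries. TRIM28 had 199 FPKM in the resistant and 203 in the parental library, and SETDB1 had 28.9 and 32.9. Of 23 co-repressor genes, none was called higher and 1 was called lower, the NuRD remodeller CHD3, with 38.5 FPKM in the resistant and 82.6 in the parental library (-1.08). That 4.35% lower stood near the 3.82% of all compared genes, of which 4.59% were higher. The heterochromatin protein gene CBX5 had 34.4 and 65.7 FPKM (-0.91), whereas its relative CBX3 had 119.5 and 123.9. DNMT3B, a DNA methyltransferase, had 2.46 FPKM in the resistant and 0.945 in the parental library (0.83), and MORC2, an ATPase of the HUSH pathway, had 12.05 and 6.549 (0.79). The median of the list was -0.14, with 8 of 23 above 0, beside 0.04 for all compared genes.

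To set gene family against position, the members of each chromosome were compared with the other genes of that chromosome. Chromosomes 13 and 21 held no member. On the 19 chromosomes with 3 or more compared members, the members' median lay above that of genes with no ZNF name on 10 and below it on 9. The difference between these medians ran from -0.32 on chromosome 20 to 0.38 on chromosome 11, each from few members (7 and 4). On 14 of the 19 chromosomes, both medians lay on the same side of the median of all compared genes. Calls were scattered: 4 chromosomes held a gene called higher and 5 a gene called lower. Chromosome 1 held 3 of the 7 genes called higher, ZNF593, ZNF697 and ZNF281, and chromosome 16 held 2.

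**Figure D2:**
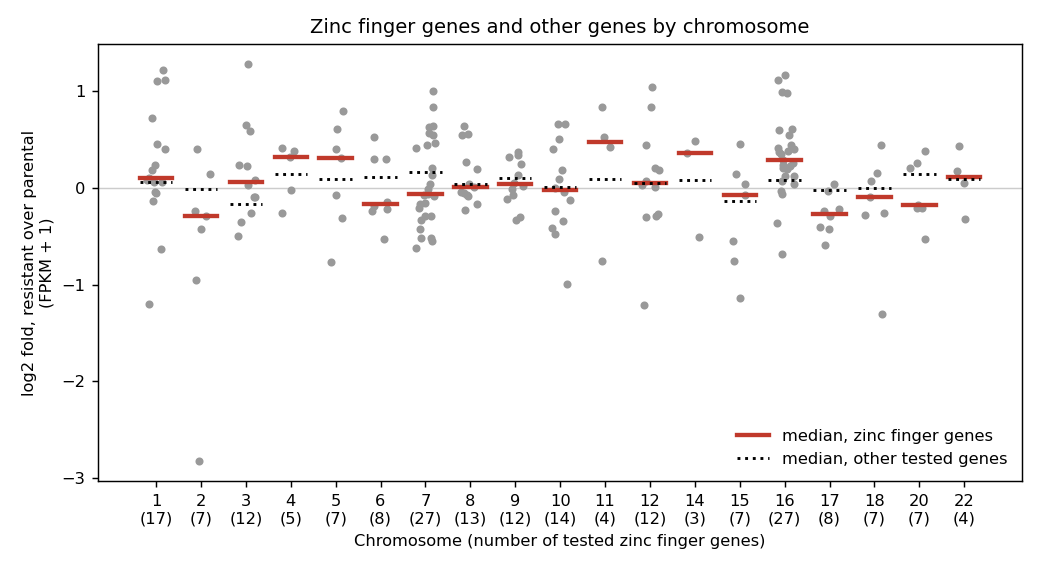
Log2 fold of resistant over parental (vertical axis, FPKM + 1) for each of the 201 compared zinc finger genes (grey points) by chromosome, with the number of genes in brackets, the median of the zinc finger genes (red line) and the median of the other compared genes (dotted line). On chromosome 16 the red line lies above the dotted one (0.29 against 0.09) and on chromosome 7 below it (-0.07 against 0.16), and the point at the bottom of chromosome 2 is ZNF512, whose position depends on the pseudocount.

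The richest chromosomes, 7 and 16 with 27 compared members each, went opposite ways. On chromosome 16 the members had a median log2 fold of 0.29 and the other 661 genes one of 0.09, and 21 of the 27 members lay above 0.09. That difference of 0.20 was 0.10 without genes that share a locus. Members of chromosome 7 had a median of -0.07, against 0.16 for the other 674 genes, with 10 of 27 above 0.16. The difference of -0.23 was -0.12 with a pseudocount of 5. Both differences kept their sign under all 11 alternatives run for them. On chromosome 17 the members had a median of -0.27 and the other genes -0.03, with 1 of 8 members above it, ZNF207. Chromosome 3, whose other genes had a median of -0.17, held 12 members with a median of 0.06. Chromosome 19, left out of the set, had 168 compared zinc finger genes with 3 called higher and 3 lower and a median of 0.05, against 0.02 for its 751 other genes.

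At a finer scale, each member was set against the median log2 fold of the 25 nearest compared genes with no ZNF name on either side. Near a chromosome end, fewer genes were available on that side, and the other side was not extended. These neighbourhood medians ran from -0.61 to 0.36. The member minus its neighbourhood had a median of 0.02, with 107 members above and 94 below. The SD of the folds was 0.51 before and 0.50 after the neighbourhood was subtracted. These SDs and the correlation across all members include ZNF512, whose fold depends on the pseudocount. They were not computed without that gene alone. Across the 201 members the fold and the neighbourhood median had a Pearson's r of 0.19 and a Spearman's rho of 0.15, and genes that share 2 libraries and overlapping neighbourhoods are not independent. Other autosomal genes outside chromosome 19 had an r of 0.19 and a rho of 0.21 with their own neighbourhood (12305 genes). Among the 122 members with a locus of their own, r was 0.11 and rho 0.07. The 5 genes called lower were all at least 1 log2 unit below their neighbourhood, ZNF512 included, and 2 of the 7 called higher were at least 1 above it. The others called higher were 0.9952 (ZNF213), 0.9819 (ZNF598), 0.9798 (ZNF593), 0.9716 (ZNF697) and 0.7523 (ZNF268) above theirs, most of them just short of 1. Called genes have a log2 fold of at least 1 in size, so a difference near 1 follows in part from the call. ZNF511 had the lowest neighbourhood of all members, -0.61, near the end of chromosome 10, and stood 0.39 below it.

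**Figure D3:**
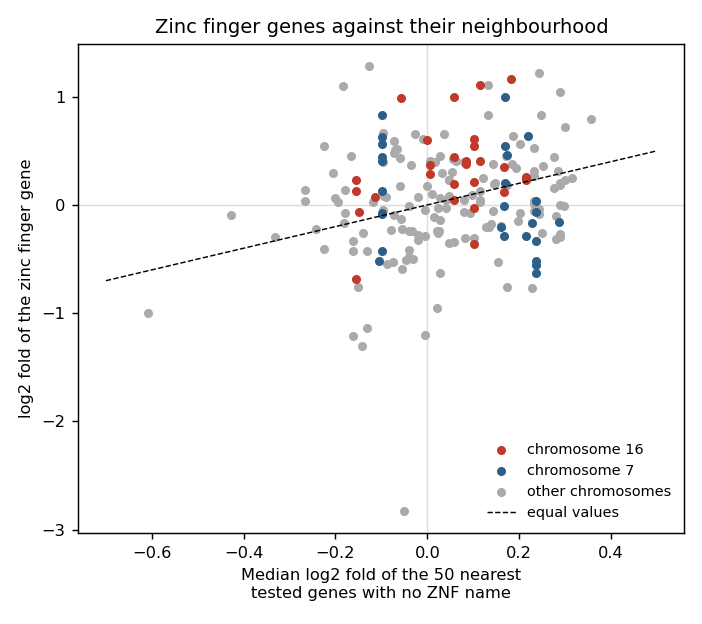
Log2 fold of each of the 201 compared zinc finger genes (vertical axis) against the median log2 fold of the 50 nearest compared genes with no ZNF name (horizontal axis), with chromosome 16 in red, chromosome 7 in blue and the others in grey. Points scatter widely about the dashed line of equal values (Pearson's r of 0.19), and the blue points fall into columns that share a neighbourhood.

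Members that neighbour each other were then read as clusters, set as runs of 3 or more listed members whose starts lie within 500 kb of the next. There were 16 clusters with 82 members, 80 of them compared. Cluster members had 2 calls, both higher (ZNF213 and ZNF268), and a median of 0.13, against 5 higher and 5 lower calls and a median of 0.03 in the 121 members outside clusters. Those shares were 2.50% and 0% inside and 4.13% each way outside, beside 4.59% and 3.82% of all compared genes. Cluster medians ran from -0.34 to 0.56, with 12 above 0 and 4 below. The upper end came from 3 genes on chromosome 8, ZNF696 to ZNF707, whose median was 0.28 with a pseudocount of 5 and 0.24 with a filter of 5 FPKM. Across 63 pairs of adjacent members with different loci and starts within 500 kb, the folds had a Pearson's r of 0.28, and 42 pairs had the same sign. The same was not computed for adjacent pairs of other genes. Whether members are more alike than other neighbouring genes was therefore not tested.

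Clusters on 1 chromosome could go opposite ways. Near the centromere of chromosome 7 (64307459 to 65401135, GRCh38), 7 genes from ZNF736 to ZNF92 had a median log2 fold of -0.34, and 1 of them, ZNF138, was above 0. ZNF680 had 4.02 FPKM in the resistant and 6.74 in the parental library (-0.63) and ZNF117 had 3.92 and 6.03 (-0.51). ZNF117 shares exons with ERV3-1 on the same strand, so its value is uncertain. The genes around this cluster had a median of 0.24, and all 7 members were below it. The 2 other compared genes that start between its ends had a median of -0.28, on the same side of 0 as the cluster. ERV3-1 may be 1 of them, so these values may not be independent of the cluster. The cluster median ran from -0.57 with a filter of 5 FPKM to -0.13 with a pseudocount of 5.

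Toward the end of 7q (149069643 to 149867479), 9 genes from ZNF786 to ZNF862 had a median of 0.41. Their neighbourhood had a median of -0.10, and 8 of the 9 were above it. The 4 other compared genes between its ends had a median of -0.69, on the opposite side of 0. Here ZNF777 had 5.97 FPKM in the resistant and 2.90 in the parental library (0.84), ZNF746 (PARIS, a repressor that parkin marks for degradation) had 7.90 and 4.77 (0.62) and ZNF282 had 10.6 and 6.85 (0.56). The member below the neighbourhood was ZNF862, with 4.12 and 5.86 FPKM (-0.42). The median ran from 0.20 with a pseudocount of 5 to 0.59 with a filter of 5 FPKM. On 7p (6615617 to 6706923) the cluster of ZNF853, ZNF316 and ZNF12 had a median of 0.54, with all 3 above their neighbourhood, and the 1 other compared gene between its ends had a log2 fold of 0.53.

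**Figure D4:**
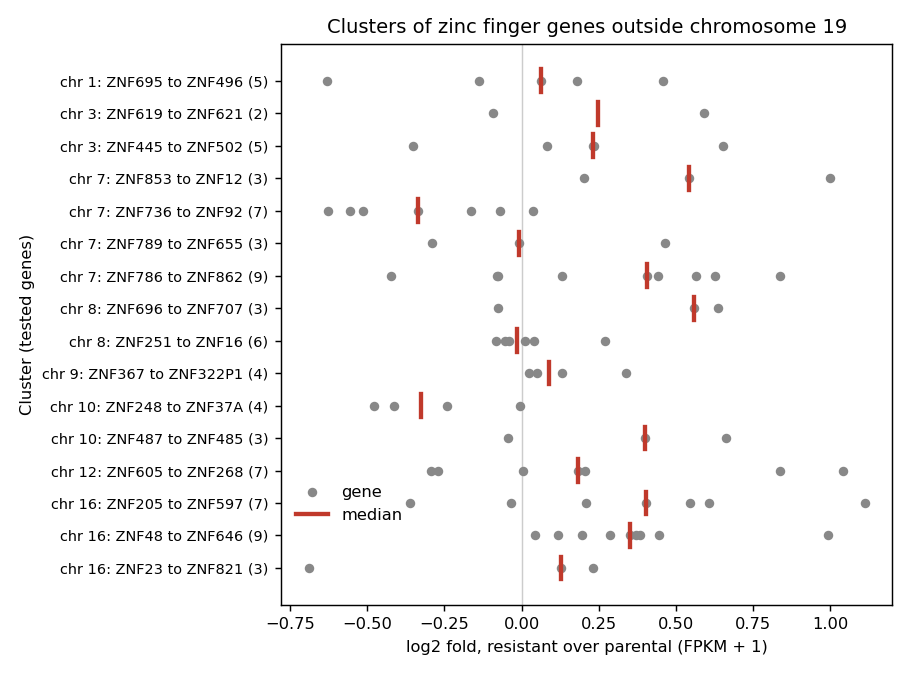
Log2 fold of resistant over parental (horizontal axis, FPKM + 1) of the compared genes (grey points) and their median (red bar) in each of the 16 clusters of zinc finger genes, named by chromosome and by first and last gene in genome order, with the number of compared genes in brackets. The ZNF736 to ZNF92 cluster has a median of -0.34 and the ZNF786 to ZNF862 cluster, on the same chromosome, one of 0.41.

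Chromosome 10 held a similar contrast. The cluster of ZNF248, ZNF25, ZNF33A and ZNF37A on the short arm (37776526 to 38150293) had a median of -0.33 and no member above 0, with ZNF248 at 4.30 FPKM in the resistant and 6.38 in the parental library (-0.48) and ZNF37A at 6.98 and 7.01. Across the centromere (43436841 to 43617903), ZNF487, ZNF239 and ZNF485 had a median of 0.40, which was 0.18 with 1 FPKM asked in both libraries. ZNF33B, the near copy of ZNF33A on that side and outside any cluster, had 6.22 and 3.57 FPKM (0.66), while ZNF33A had 6.40 FPKM in the resistant and 8.85 in the parental library (-0.41). The 2 copies are alike in sequence, so reads can be split between them and both values are uncertain.

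On chromosome 16, the cluster from ZNF205 to ZNF597 (3112560 to 3443553) had a median of 0.40 over 7 genes. Its neighbourhood had a median of 0.10, and 5 of the 7 were above it. The 6 other compared genes that start between its ends had a median of 0.36, on the same side of 0 as the cluster. TIGD7, whose exons overlap ZNF75A and ZNF263 on the opposite strand, may be among them. In this cluster ZNF263, a SCAN and KRAB factor, had 26.80 FPKM in the resistant and 17.25 in the parental library (0.61). The cluster from ZNF48 to ZNF646 (30378106 to 31084196) had a median of 0.35 and all 9 compared genes above 0, ZNF768 at the top. The 21 other compared genes that start between its ends had a median of 0.03. Without genes that share a locus, the medians of these 2 clusters were 0.21 and 0.20. At the end of 12q, 7 KRAB genes from ZNF605 to ZNF268 (132918308 to 133214831) ran from -0.29 for ZNF140 to 1.04 for ZNF268 with a median of 0.18. Their neighbourhood had a higher median, 0.29, and 2 of the 7 were above it. The 3 other compared genes between the cluster's ends had a median of -0.66.

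The most alike sets were close to the members in their summary values. Zinc finger genes on chromosome 19 had 1.79% called higher and 1.79% lower. The 63 compared ZSCAN, ZKSCAN, ZFP and ZBTB genes outside chromosome 19 had 1 called higher and none lower, with a median log2 fold of 0.09. Their levels were low too, with medians of 5.25 FPKM in the resistant and 4.79 in the parental library for the members, 3.93 and 3.62 for chromosome 19, and 6.36 and 5.60 for the ZSCAN, ZKSCAN, ZFP and ZBTB genes. Of the members, 80.6% stayed within 1.5-fold, beside 83.3% of the chromosome 19 genes and 73.5% of all compared genes. Among 9834 genes with no ZNF name in the members' range of level (mean FPKM of 1.21 to 25.7) it was 74.4%. That set shares the range but is not matched in level, with medians of 7.425 FPKM in the resistant and 7.111 in the parental library. At 1.5-fold, 12.4% of the members were higher and 6.97% lower, beside 14.5% and 12.01% of all compared genes.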

How the data were processed

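RNA of 2 cultures was sequenced from a stranded mRNA kit, per the labels. Per the file headers, the authors deposited FPKM for each library, a log2 ratio, and the p-values and q-values from their test. The sources used here name no aligner, quantifier, build, test or use of strand, and the depth is unknown. All identifiers of the 211 members were found in GENCODE 29 (GRCh38), and the deposited locus contained 204 of them, so its coordinates are given. The table merges overlapping loci, and 81 members share one with another listed gene.

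Folds were log2(FPKM + 1) differences over genes with 1 FPKM or more in either library, computed in Python 3.11.15 with pandas 2.3.3 and checked on simulated data. No test was run on 1 library per group. Chromosome medians, neighbourhoods of up to 25 genes on each side and clusters used the locus starts. No RefSeq proteins were used here, so KRAB and finger patterns were searched in translated GENCODE coding sequences with biopython 1.88, a change from the plan. The KRAB pattern asks for a tryptophan and a glutamine at a set spacing, followed at set distances by residues from short lists typical of the A box. Members and lists were chosen with earlier results of these data known. Named genes are all called members, members listed at 0, the 5 most abundant of each library, the ends of each role list and members of the clusters described. Others, among them the co-repressors and some role list and cluster genes, were chosen after their values were seen. Alternatives were other pseudocounts, filters, scalings, thresholds and neighbourhood sizes, and leaving out genes listed at 0 or sharing a locus.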

Additional observations from a re-analysis of the deposited data

How the results depend on the processing

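No paired analysis was possible because each group has 1 library. Among the 12 called members, no fold changed sign under any alternative, but this is no check. Pseudocounts, filters, thresholds and left-out genes cannot change a sign. The scalings moved folds little, such as ZNF598 from 1.16 to 1.09 with upper quartile scaling and 1.12 with median centring. With a pseudocount of 5, 1 member was called lower (ZNF512) and 0 higher, and with 0.1 there were 15 higher and 9 lower, where the share of all compared genes moved to 1.58% and 0.82% with 5 and to 7.72% and 7.38% with 0.1. The 1.5-fold threshold gave 25 higher members and 14 lower ones, and the 4-fold threshold gave 0 higher and 1 lower. Upper quartile scaling turned the members' median to -0.0117 beside a median of all compared genes of -0.02861, which median centring sets to 0. Without genes that share a locus, the median difference from the neighbourhood was -0.0167, where it had been 0.02. The median of members with a KRAB match was 0.13 with a filter of 5 FPKM, -0.006003 with no filter and with 1 FPKM in both libraries, -0.03979 with upper quartile scaling, -0.03824 with median centring and -0.001181 with at least 3 fingers. Cluster medians changed sign for ZNF695 to ZNF496 with upper quartile scaling (-0.009022), for ZNF619 to ZNF621 with no filter (-0.06322) and for ZNF251 to ZNF16 without shared loci (0.01184). Leaving out members with names ending in P1 or IT1, chosen after seeing the data, removed no called gene, so no call could change. The members' median stayed at 0.049. Low FPKM and an unknown depth limit the precision of most members.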
